A study of Mus musculus with 4 samples.

Results

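The nuclear-encoded subunits of oxidative phosphorylation were followed through the immune cells of CT26 tumours from mice treated with liproxstatin-1 and from control mice. Members were all genes whose symbol begins with Nduf followed by a subunit letter (a, b, c, s or v) and a digit, with Uqcr, with Cox plus a digit for the small subunits and an isoform letter, or with Atp5, together with Sdha, Sdhb, Sdhc, Sdhd and Cyc1. This gave 84 of the 32285 genes listed, namely 38 of complex I, 4 of complex II, 9 of complex III, 16 of complex IV and 17 of complex V, and all 84 were counted whatever their level. Complexes were assigned by symbol, so Ndufa4, now placed in complex IV, is counted with complex I here. The patterns leave out Cox4i1, Cox4i2, the complex I acyl carrier protein Ndufab1, the electron carrier cytochrome c (Cycs) and the ATP synthase inhibitor Atpif1, which are given beside the members. The 13 mitochondrially encoded protein genes (mt- genes) served as the counterpart made in the organelle.

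CT26 is a mouse colon carcinoma line grown as a tumour in Balb/c mice, here 9 weeks old in both groups. The treated group received liproxstatin-1, a radical-trapping inhibitor of ferroptosis, for 8 days, and the other group is labelled control. Leukocytes were taken from the tumours with beads against CD45 and sequenced by droplet 3' RNA-seq, with 2 liproxstatin libraries and 2 control libraries. Nothing in the labels says that the replicates are separate animals, so a p-value here covers the spread among the 4 libraries alone, and that spread may be technical.

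Oxidative phosphorylation passes electrons from NADH through complex I, or from succinate through complex II, to complex III and on by cytochrome c to complex IV, where oxygen is reduced. Complexes I, III and IV pump protons across the inner mitochondrial membrane, and complex V, the ATP synthase, uses their return to make ATP. All complexes but complex II join nuclear-encoded subunits to core subunits encoded in mitochondrial DNA, so both genomes are needed to build them. Mature neutrophils are known for relying largely on glycolysis, whereas macrophages and activated lymphocytes keep larger mitochondrial networks.

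Libraries held 168597163 and 165165389 unique molecular identifiers (UMIs) under liproxstatin, against 83129874 and 162158147 in control. After filtering, 25690 of 29092 barcodes were kept, with a median of 16395 and 15411.5 UMIs per cell under liproxstatin, against 16804 and 19487 in control, and 67 barcode sequences occurred in 2 libraries. Cells were put into 10 immune classes by counts of marker genes, and 5329 kept cells met no gate. The largest class was the mononuclear phagocytes (monocytes and macrophages), with 3959 and 4467 cells under liproxstatin, against 1844 and 3242 in control, and the neutrophils had 541 and 353 cells, against 92 and 383. Ptprc, which encodes CD45, had a UMI in 91.4% to 99.7% of the cells of every class except mast cells and basophils, at 55.2%. Levels are UMIs summed per library and class, given per 10000 UMIs for groups of genes and per 1000000 (CPM) for single genes. A 3' UMI counts a transcript once whatever its length, so values are not divided by length.

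Promoter sequences are shown for the members that the results turn on. The RefSeq promoter table for GRCm38.p6 held 69 of the 84 members, and the 250 bases before the start are printed 5' to 3' on the gene's strand. Atp5k was the only member to pass the test for treatment, and Cox6a1 is the widespread counterpart of the isoform with the most uneven level. Uqcrh and Ndufa6 were the members that rose most in CD8 T cells and in dendritic cells against mononuclear phagocytes. The letters are in lower case throughout, since no motif was searched.
Atp5k, chr5:108434400-108434649, minus strand: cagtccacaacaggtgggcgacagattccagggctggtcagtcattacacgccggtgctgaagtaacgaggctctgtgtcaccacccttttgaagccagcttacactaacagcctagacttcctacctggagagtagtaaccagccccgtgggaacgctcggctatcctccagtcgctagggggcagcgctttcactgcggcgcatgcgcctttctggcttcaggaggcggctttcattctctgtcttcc
Cox6a1, chr5:115348959-115349208, minus strand: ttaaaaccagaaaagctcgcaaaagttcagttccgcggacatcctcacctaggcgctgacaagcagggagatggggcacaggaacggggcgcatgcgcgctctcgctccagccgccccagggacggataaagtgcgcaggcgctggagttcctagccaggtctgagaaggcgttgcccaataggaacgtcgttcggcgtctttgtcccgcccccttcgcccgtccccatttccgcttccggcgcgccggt
Uqcrh, chr4:116075071-116075320, minus strand: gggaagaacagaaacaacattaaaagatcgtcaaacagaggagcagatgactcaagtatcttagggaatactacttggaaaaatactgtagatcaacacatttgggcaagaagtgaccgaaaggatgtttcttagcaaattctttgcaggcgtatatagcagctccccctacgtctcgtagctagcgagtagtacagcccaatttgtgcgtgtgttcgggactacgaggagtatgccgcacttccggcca
Ndufa6, chr15:82354292-82354541, minus strand: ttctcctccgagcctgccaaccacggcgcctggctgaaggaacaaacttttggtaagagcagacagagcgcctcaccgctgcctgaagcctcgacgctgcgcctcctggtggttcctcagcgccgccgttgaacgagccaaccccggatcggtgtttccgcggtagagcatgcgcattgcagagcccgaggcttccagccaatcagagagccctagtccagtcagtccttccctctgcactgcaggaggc

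G and C made up 57.6% of these bases before Atp5k, 62.8% before Cox6a1, 45.6% before Uqcrh and 62.4% before Ndufa6. Cox6a2, the member with the most uneven level between classes, has no entry in the table.

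Neutrophils stood far below every other class. Their members summed to 49.9 and 56.4 UMIs per 10000 under liproxstatin, against 99.1 and 56.8 in control. Mononuclear phagocytes had 222.9 and 222.3 per 10000 under liproxstatin, against 251.3 and 245.5 in control. Over the 4 libraries the mean was 65.5 ± 22.6 in neutrophils and 235.5 ± 15.1 in mononuclear phagocytes (SD, n = 4), and no library of the neutrophils reached a library of another class. These sums are shares of a class's UMIs, and depth differed too. The median neutrophil had 3370 UMIs, against 24772 in the median mononuclear phagocyte. The parts of fewer member transcripts per cell and of a larger share of other transcripts were not tested.

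The other 8 classes lay closer together. Mast cells and basophils averaged 239.9 ± 18.04 per 10000, plasmacytoid dendritic cells 225.9 ± 13.1, NK cells 222.6 ± 9.97 and CD8 T cells 217.8 ± 13.02 (SD, n = 4). Regulatory T cells averaged 215.9 ± 17.0 and dendritic cells 215.4 ± 10.5. Neighbours in this order did not differ beyond their spread, while conventional CD4 T cells at 189.4 ± 8.11 and B cells at 155.1 ± 6.59 came below. The mt- genes ordered the classes differently. They averaged 597.5 ± 78.4 per 10000 in mast cells and basophils, 512.6 ± 28.1 in plasmacytoid dendritic cells and 501.2 ± 28.2 in B cells, against 320.1 ± 29.6 in mononuclear phagocytes, 235.1 ± 20.1 in NK cells and 62.8 ± 22.9 in neutrophils.

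The ratio of nuclear to mt- subunit UMIs therefore spanned the classes. It averaged 0.311 ± 0.029 in B cells, 0.410 ± 0.087 in mast cells and basophils and 0.442 ± 0.046 in plasmacytoid dendritic cells. It was 0.736 ± 0.080 in CD8 T cells, 0.743 ± 0.113 in mononuclear phagocytes, 0.954 ± 0.119 in NK cells and 1.06 ± 0.133 in neutrophils (SD, n = 4). Neutrophils were low in both sets and not in their proportion to each other.

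**Figure D1:**
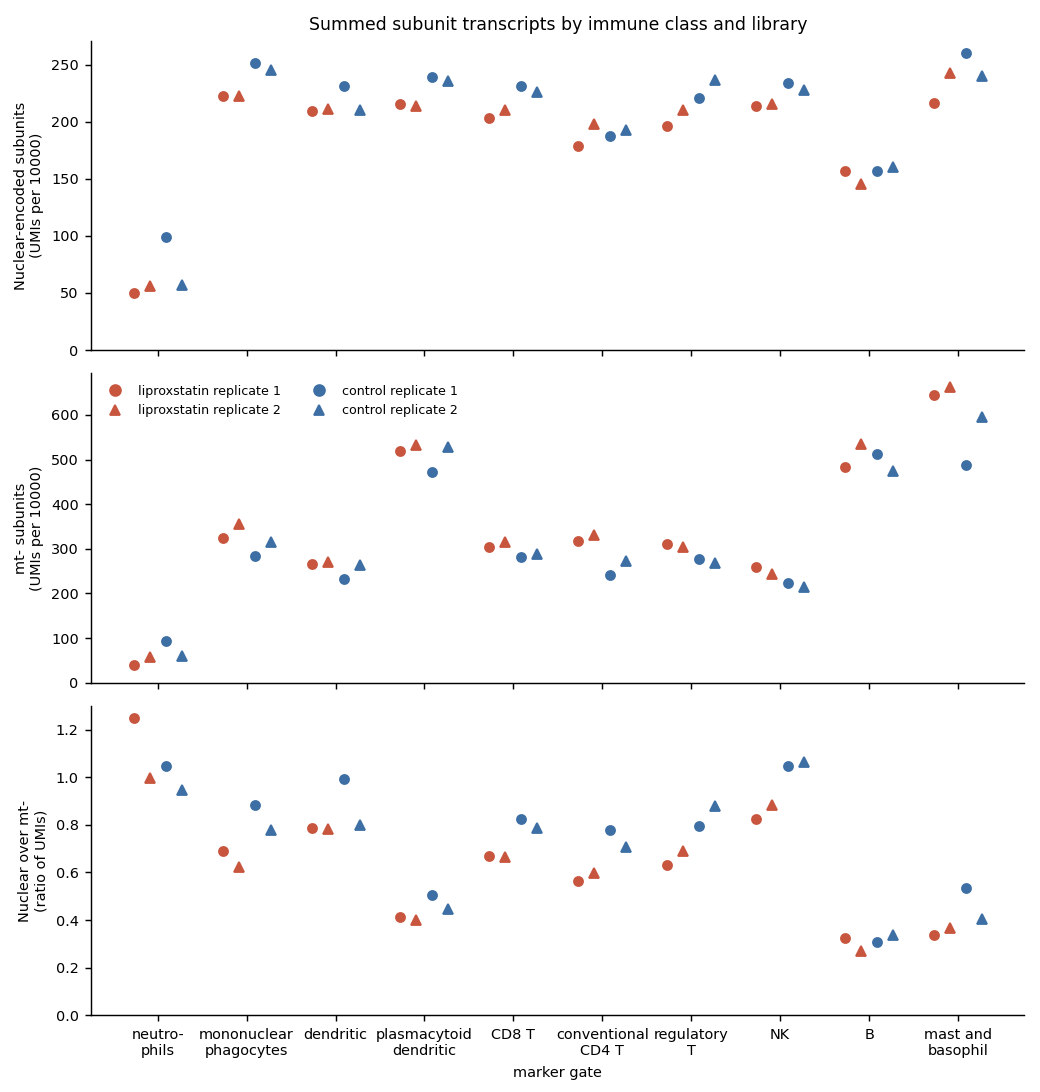
Members' UMIs per 10000 UMIs (upper panel), UMIs of the 13 mt- genes per 10000 UMIs (middle panel) and the ratio of the former to the latter (lower panel). Each panel has 1 point per library, by immune class, liproxstatin left of control. In mononuclear phagocytes, CD8 T cells and NK cells both liproxstatin libraries lie below both control libraries in sum and in ratio, and control replicate 1 of the neutrophils stands at 99.1 per 10000, apart from the other 3 neutrophil libraries.

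The sums were lower under liproxstatin in the phagocytes and lymphocytes that had enough cells for a test. In mononuclear phagocytes the mean difference, liproxstatin minus control, was -25.8 per 10000 with a pooled SD of 2.90. The make-up of that class moved too, with monocyte-range cells (markers such as Ly6c2 and Vcan) at 13.97% and 13.07% of phagocytes under liproxstatin, against 7.81% and 8.57% in control. Those cells had 195.2 and 199.0 member UMIs per 10000 under liproxstatin, against 213.0 and 205.4 in control. Macrophage-range cells (C1q and Apoe) had 227.5 and 225.9, against 256.6 and 250.7, and cells between the ranges 216.2 and 215.4, against 239.5 and 231.1. The liproxstatin libraries were below the control libraries within each range. In CD8 T cells the sums were 203.4 and 210.5 under liproxstatin, against 231.0 and 226.3 in control, a difference of -21.7 with a pooled SD of 4.29. In NK cells they were 213.4 and 215.3, against 234.3 and 227.4, a difference of -16.5 with a pooled SD of 3.59. The groups did not overlap in these 3 classes. In dendritic cells the sums of 209.0 and 211.4 under liproxstatin stood against 231.1 and 210.0 in control and the groups overlapped, with a difference of -10.3 and a pooled SD of 10.6. That difference was 0.203 without control replicate 1 and 0.0738 with stricter marker gates. With 2 libraries a group, the smallest two-sided exact permutation p is 0.333, so no p is given for these sums.

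The complexes moved by like amounts. In mononuclear phagocytes complex I had 69.7 and 70.2 per 10000 under liproxstatin, against 78.5 and 79.0 in control. Complex IV had 54.7 and 53.7, against 62.1 and 58.6, and complex V had 70.7 and 70.8, against 79.7 and 77.4. Complex III had 23.3 and 22.9, against 25.9 and 25.3. Complex II, whose 4 subunits are all nuclear and which also serves the tricarboxylic acid cycle, had 4.52 and 4.67, against 4.98 and 5.20. Each complex kept the liproxstatin libraries below the control libraries in this class.

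The mt- genes went the other way in the same cells. In mononuclear phagocytes they had 323 and 357 UMIs per 10000 under liproxstatin, against 284 and 316 in control. In CD8 T cells they had 303 and 316, against 281 and 288, and in NK cells 259 and 244, against 224 and 214. The groups did not overlap in any of these. The ratio of nuclear to mt- UMIs was 0.689 and 0.623 in mononuclear phagocytes under liproxstatin, against 0.883 and 0.777 in control. It was 0.671 and 0.666 in CD8 T cells, against 0.823 and 0.786, and 0.825 and 0.883 in NK cells, against 1.05 and 1.06. The liproxstatin libraries were lower throughout, by -0.174, -0.136 and -0.201 on average.

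Depth moved with treatment in these cells. The median cell had 24767 and 21423 UMIs in mononuclear phagocytes under liproxstatin, against 27966.5 and 29997 in control. The medians were 12364 and 11225.5 in CD8 T cells, against 14788.5 and 14518 in control, whereas in NK cells they were 12849 and 10976, against 12262.5 and 14506, and overlapped. Cell cycle genes were lower with the members in mononuclear phagocytes, at 14.1 and 12.7 per 10000 under liproxstatin, against 17.4 and 17.5 in control. By edgeR's test 15 of the 30 listed cell cycle genes were called lower there, where 1.78% of 14574 genes were called. The median log2 difference of the 30 was -0.36. In CD8 T cells and NK cells the cell cycle sums of the groups overlapped, although the members were lower there too. The 30 genes had medians of -0.12 and -0.09 in these classes. None was called, where 0.806% and 0.0299% of all genes were. The part of depth and of cycling cells in the members' difference was not tested.

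**Figure D2:**
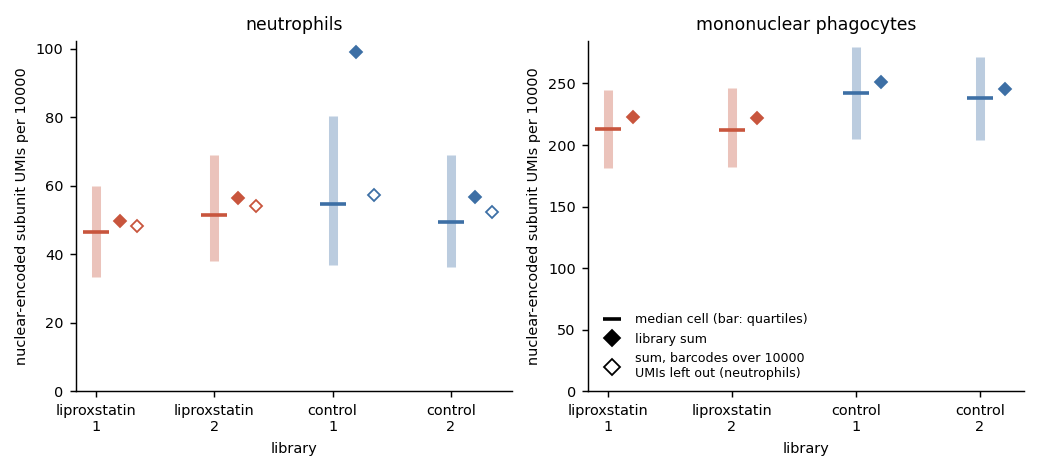
Members' UMIs per 10000 UMIs per library, liproxstatin left of control, in neutrophils (left panel) and mononuclear phagocytes (right panel). Ticks mark the median cell, bars the quartiles and filled diamonds the library sum. Open diamonds mark the neutrophil sums with barcodes over 10000 UMIs left out. The median cell of mononuclear phagocytes had 213 in both liproxstatin libraries, against 242 and 238 in control, while the neutrophil libraries stood between 46.5 and 54.8.

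Gene by gene, the shift was small and almost no member passed the test. edgeR's quasi-likelihood test with Benjamini-Hochberg adjustment over all genes called 0 of 81 tested members in mononuclear phagocytes, where 1.78% of 14574 genes were called. DESeq2's Wald test called 0 members as well, where it called 4.63% of 12031 genes. An unadjusted p under 0.05 was reached by 17 members (20.99%), against 16.4% of all genes. The members' median log2 difference was -0.11 and 71 of 81 lay below 0, whereas the median of all genes was -0.00. The complexes had medians of -0.11 (I), -0.10 (II), -0.16 (III), -0.14 (IV) and -0.11 (V), and the mt- genes had 0.24 with none called. Both liproxstatin libraries lay below both control libraries for 63 members and above for 0, against 31.2% and 17% of all genes tested.

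CD8 T cells gave the one call. There 1 of 79 members passed the test, where 0.806% of 11534 genes did, the median was -0.15 with 73 below 0, and the median of all genes was -0.01. An unadjusted p under 0.05 was reached by 17 members (21.5%), against 9.57% of all genes. Libraries did not overlap for 49 members on the low side, against 20.4% of all genes, and for 1 on the high side, against 19%. The complexes had medians of -0.13 (I), -0.12 (II), -0.15 (III), -0.21 (IV) and -0.13 (V). The member called was Atp5k, which encodes subunit e of the ATP synthase, a membrane subunit of its dimer interface. Its level was 207 and 197 CPM under liproxstatin, against 311 and 264 CPM in control, which do not overlap. The log2 difference was -0.51 ± 0.12 (SE), with an adjusted p of 0.043 by edgeR's quasi-likelihood test with Benjamini-Hochberg adjustment. The call was lost, at an adjusted p of 0.228 and a difference of -0.37, without control replicate 1. It was also lost without liproxstatin replicate 1 (adjusted p 0.466, difference -0.52) and without liproxstatin replicate 2 (adjusted p 0.435, difference -0.50), each by edgeR's test.

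Atp5k was lower in the treated libraries beyond CD8 T cells, although no other class called it. Mononuclear phagocytes had 268 and 244 CPM under liproxstatin, against 361 and 301 CPM in control, and NK cells had 231 and 234 CPM, against 322 and 276 CPM. Counting all 10 classes, small ones included, both liproxstatin libraries lay below both control libraries in 9. Ndufa3, an accessory subunit of complex I, did so in 10 of 10. It had 180 and 160 CPM in mononuclear phagocytes under liproxstatin, against 255 and 203 CPM in control, a log2 difference of -0.39 ± 0.13 (SE) with an adjusted p of 0.19 by edgeR's test, which is not a call.

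Among the 76 members with at least 15000 UMIs, 9 (11.8%) lay below in at least 8 of the 10 classes, against 0.953% of the 3776 genes with as many UMIs. On the high side there were 0 members, against 0.503% of genes. Besides Atp5k and Ndufa3 these were Atp5j2, Ndufb1-ps and Ndufs6 in 9 classes and Atp5mpl, Cox7c, Ndufa7 and Uqcr10 in 8, chosen after their values were seen. The classes come from the same 4 libraries and are not independent of each other. Control replicate 1 was the highest of the 4 libraries in at least 8 classes for 11 of the 76 members (14.5%), against 2.20% of the 3776 genes. Of the 9 members just named, 6 are among these 11, namely Atp5j2, Atp5k, Atp5mpl, Cox7c, Ndufa3 and Ndufb1-ps.

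Transcript length went with the difference in mononuclear phagocytes and CD8 T cells. Members with a median transcript length of up to 600 bases had a median log2 difference of -0.15 in mononuclear phagocytes, against -0.08 for all genes of that length. Members of over 1000 bases had -0.07, against 0.01 for all genes of that length. In CD8 T cells the short members had -0.21, against -0.11 for all short genes, and the long members had -0.09, against 0.01. In these 2 classes short genes were lower as a whole, and members lower than all genes of their length. NK cells were alike in short members, at -0.16 against -0.08, but their members of 600 to 1000 bases had -0.02, against -0.03 for all genes of that length. In dendritic cells the short members had -0.09, against -0.06, and the long ones 0.02, against 0.01. In neutrophils, with all barcodes kept, the members did not follow length, with -0.47, -0.54 and -0.42 from the shortest to the longest group. All genes did follow it there, with -0.27, -0.18 and 0.01. The part of transcript length in the members' difference was not tested.

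NK cells and dendritic cells called 0 members. In NK cells 79 were tested and 0.0299% of 10042 genes were called. The members' median was -0.10, against -0.01 for all genes, with 58 members below 0. By edgeR's test 5 members (6.33%, against 4.99% of all genes) had an unadjusted p under 0.05. DESeq2's Wald test called 0 members, where it called 0.134% of 5953 genes. Libraries did not overlap for 38 members on the low side, against 18.9% of genes, and for 3 on the high side, against 14.8%. In dendritic cells 79 were tested, 0.292% of 8896 genes were called, and the members' median was -0.04, against -0.00. By edgeR's test 1 member (1.27%, against 6.46% of all genes) had an unadjusted p under 0.05. DESeq2's Wald test called 0 members in dendritic cells, where it called 0.314% of 6999 genes. There 25 members did not overlap on the low side and 7 on the high side, against 21% and 14.8% of genes, and without control replicate 1 the median was 0.08.

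The most displaced members differed between classes. In mononuclear phagocytes the lowest values were those of Cox6a2 (-0.54 ± 0.13, SE) and Ndufa3, and the highest those of Ndufa4l2 (0.74) and Cox7a2l (0.17), a factor in the joining of complexes III and IV. In CD8 T cells the lowest were Cox7a1 (-0.63) and Atp5k and the highest Cox7a2l (0.15) and Sdha (0.04), the flavoprotein of complex II. In NK cells they were Cox6b2 (-0.65) and Atp5md (-0.39), against Cox7a2l (0.11) and Ndufb5 (0.10). In dendritic cells they were Ndufs1 (-0.29) and Ndufa3 (-0.28), against Ndufa10 (0.33) and Ndufv1 (0.22), which encodes the NADH-binding subunit. Ndufa4l2 stayed low in every phagocyte library, at 0.749 and 1.75 CPM under liproxstatin, against 0.745 and 0.798 CPM in control. Several other extremes were of low level too. Cox6a2 averaged 3.63 CPM in mononuclear phagocytes, Cox7a1 had 121 UMIs in all CD8 T cells and Cox6b2 had 47 in all NK cells. Of the members named in this paragraph, only Atp5k in CD8 T cells passed edgeR's test.

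**Figure D3:**
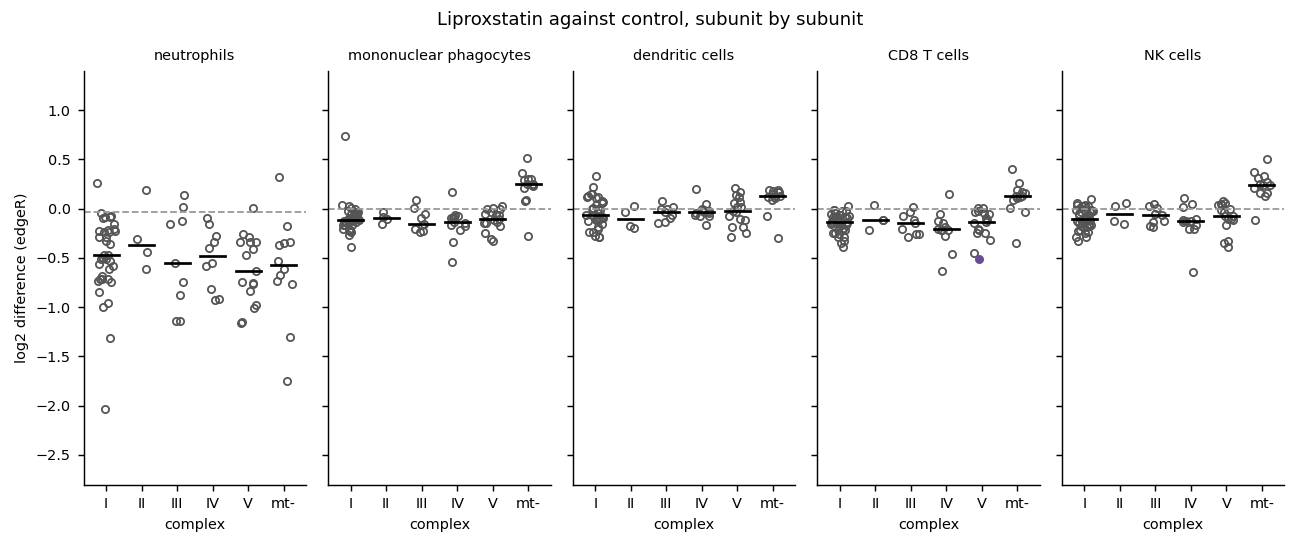
Log2 difference, liproxstatin over control, for each tested member by complex, with the mt- genes beside them, in the 5 classes, and each group's median as a bar. Members lie mostly just below 0 in mononuclear phagocytes and CD8 T cells while the mt- genes lie mostly above it, and in neutrophils both lie below 0.

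Neutrophils had the largest shift and it rested on very few barcodes of control replicate 1. edgeR called 0 of 77 tested members and 0% of 5800 genes. DESeq2's Wald test also called 0 members, where it called 0.335% of 2089 genes. By edgeR's test 17 members (22.1%) and 541 genes (9.33%) had an unadjusted p under 0.05. The members' median log2 difference was -0.47, against -0.03 for all genes, with 72 below 0, and libraries did not overlap for 38 members on the low side and 0 on the high side, against 23.7% and 16.4% of genes. The mt- genes were also low, with a median of -0.57. The furthest members were Ndufa9 (-2.03) and Ndufa5 (-1.31) of complex I on the low side and Ndufb6 (0.26) and Sdha (0.19) on the high side. Ndufa9 had 4.62 and 3.90 CPM under liproxstatin, against 34.97 and 9.95 CPM in control, on 9 and 4 UMIs against 16 and 15.

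Of the 92 neutrophil barcodes in control replicate 1, 3 had over 10000 UMIs, with 57412 in the deepest, whereas the median barcode of that library had 3779.5. These 3 held 26.8% of the library's neutrophil UMIs and 57.6% of its members' UMIs. They had 213 member UMIs and 241 mt- UMIs per 10000, cell cycle genes at 29.7 per 10000 and neutrophil markers at 110 per 10000, against 1360 in the other 89 barcodes. Dendritic cell markers stood at 11.4 per 10000 in the 3 and at 0.448 in the rest, and Cd74, of the antigen-presentation pathway, at 90.1 and 2.00. In the other libraries 1 and 3 such barcodes under liproxstatin and 5 in control replicate 2 held 4.41%, 7.39% and 11.6% of member UMIs.

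Without barcodes over 10000 UMIs, a limit chosen after seeing the data, the sums were 48.2 and 54.1 per 10000 under liproxstatin, against 57.4 and 52.5 in control, and the groups overlapped. The mt- genes had 37.3 and 48.6, against 40.9 and 51.2. The members' median was -0.09, against -0.00 for all genes. With these barcodes left out, edgeR's test called 0 members and 0.202% of 5450 genes. Per cell, the median neutrophil had 46.5 and 51.5 member UMIs per 10000 under liproxstatin, against 54.8 and 49.3 in control, and 28.0 and 25.7 mt- UMIs, against 26.5 and 28.7. The test of whether neutrophils responded otherwise than mononuclear phagocytes was edgeR's quasi-likelihood interaction. It called 0 of 81 members, where 0.184% of 13576 genes were called. By the same test 4 members (4.94%, against 5.69% of all genes) had an unadjusted p under 0.05. DESeq2's Wald test called 0 members and 0% of 13576 genes. The members' median interaction was -0.20 with all barcodes and 0.16 without those over 10000 UMIs.

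Of the contrasts between classes, that of neutrophils with mononuclear phagocytes had the members' median farthest from 0. It was fitted over 8 sums with the library as a block and called 76 of 81 members lower and 0 higher, where 39.5% of 12705 genes were called lower and 25.3% higher. The median of the members was -1.60 on the log2 scale, against -0.64 for all genes, and with the neutrophil barcodes over 10000 UMIs left out it was -1.79. All complexes took part, with medians of -1.58 (I), -1.34 (II), -1.74 (III), -1.11 (IV) and -1.59 (V). The other mitochondrial lists were lower as well, with 13 of 13 mt- genes, 75 of 78 mitochondrial ribosomal proteins and 14 of 17 tricarboxylic acid cycle genes called lower. Cytosolic ribosomal proteins were lower for 77 of 80, a list with no mitochondrial role.

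The members that fell most were Ndufc2 (-2.65 ± 0.21, SE), Ndufa11 (-2.56 ± 0.22) and Ndufa9 (-2.48 ± 0.35) of complex I, Atp5g1 (-2.50 ± 0.21) of the c-ring and Uqcrb (-2.47 ± 0.21) of complex III. Their adjusted p-values by edgeR's test ran up to 2.17e-05, the value for Ndufa9. Ndufc2 had 20.5, 19.5, 45.9 and 19.2 CPM in neutrophils (liproxstatin 1 and 2, then control 1 and 2), against 211, 225, 254 and 250 CPM in mononuclear phagocytes, with no overlap. The smallest called differences were those of Uqcrh (-0.74), Ndufs1 (-0.66), Ndufa3 (-0.58), Ndufb9 (-0.50) and Atp5md (-0.47), and all of these but Uqcrh lost their call under some alternative.

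The members that were not called were Cox8a, Atp5l, Ndufa7, Cox6a2 and Ndufa4l2. Cox8a, a small subunit of complex IV and the member with the most UMIs (445521), had 484, 576, 697 and 508 CPM in neutrophils, against 966, 930, 1106 and 984 CPM in mononuclear phagocytes. Its fitted log2 difference was -0.20 ± 0.19 (SE), with an adjusted p of 0.336 by edgeR's test. The fit scales each sum by TMM, under which the median of all genes was -0.64, against -0.99 in CPM. A member can thus be lower in CPM than its fitted difference shows.

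**Figure D4:**
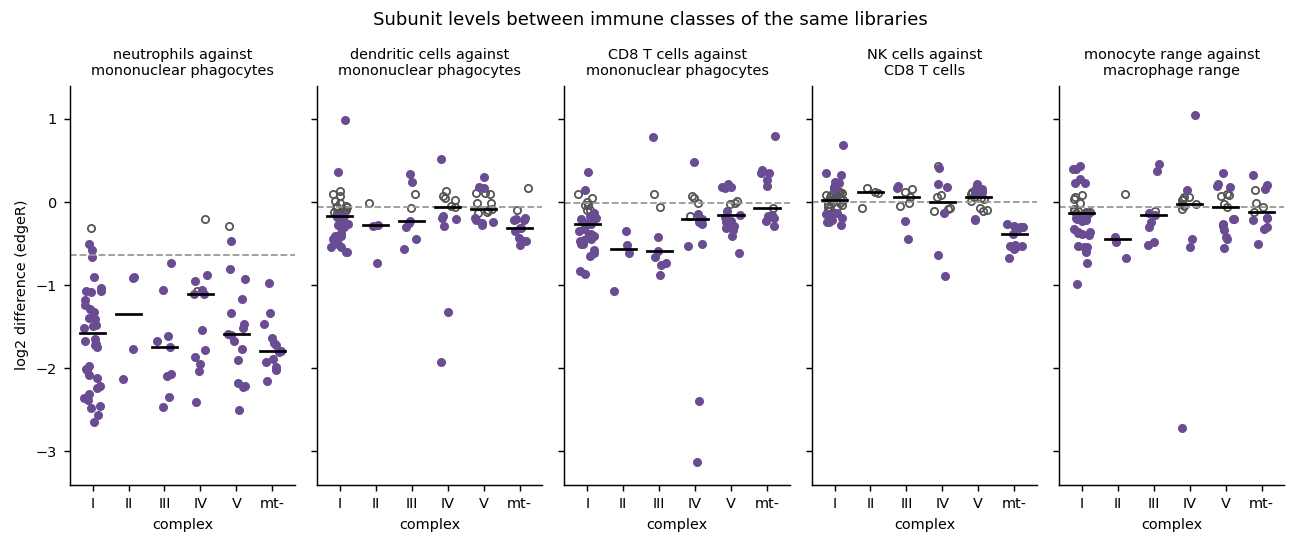
Log2 difference of each member between classes, first-named class over second, by complex, for the 5 class contrasts. Neutrophils against mononuclear phagocytes lie below 0 for every member shown, whereas NK cells against CD8 T cells scatter around 0. Ndufa4l2, which had 0 UMIs in dendritic cells, is left off in all 5 contrasts.

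Dendritic cells called 8 members higher and 39 lower than mononuclear phagocytes, where 24.5% and 30.1% of 12883 genes were called, with a median of -0.15, against -0.06 for all genes. Ndufa6, a complex I subunit of the LYR family, stood apart on the high side. It had 494, 459, 545 and 492 CPM in dendritic cells, against 249, 244, 271 and 285 CPM in mononuclear phagocytes, with no overlap and a difference of 0.98 ± 0.07 (log2, SE; adjusted p 1.02e-15 by edgeR's test). Cox7a2l (0.52), Ndufb11 (0.37), the Rieske iron-sulfur protein Uqcrfs1 (0.33) and Atp5c1 (0.30), the central stalk of ATP synthase, followed. On the low side were Cox6a2 (-1.92), Cox7a1 (-1.32), Sdhc (-0.73), a membrane anchor of complex II, and Ndufc1 (-0.60). In dendritic cells Cox6a2 rested on 8 UMIs and Cox7a1 on 54. Ndufa4l2 was called lower too, with 0 UMIs in dendritic cells and a mean of 1.01 CPM in phagocytes, and no fold is given.

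CD8 T cells called 8 members higher and 56 lower than mononuclear phagocytes, where 40.2% and 41.7% of 13513 genes were called, with a median of -0.26, against -0.01 for all genes. Complexes II and III were lowest, at medians of -0.56 and -0.59. Uqcrh, the hinge protein of complex III that sits by cytochrome c1, went against its complex. It had 834, 820, 812 and 825 CPM in CD8 T cells, against 459, 480, 468 and 442 CPM in mononuclear phagocytes, with no overlap and a difference of 0.79 ± 0.04 (log2, SE; adjusted p 4.58e-10 by edgeR's test). Cox7a2l (0.48), Ndufa13 (0.37), Atp5e (0.21) and Atp5h (0.19) were also higher. Cox6a2 (-3.12), Ndufa4l2 (-2.98), Cox7a1 (-2.39), Sdhc (-1.07) and Uqcr11 (-0.88) were lowest. The first 3 are of low level. In CD8 T cells Cox6a2 rested on 17 UMIs and Cox7a1 on 121, and Ndufa4l2 averaged 1.01 CPM even in mononuclear phagocytes. The mt- genes divided, with 6 called higher and 6 lower, and 77 of 80 cytosolic ribosomal proteins were higher.

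NK cells and CD8 T cells were nearly alike in their sums and differed in single members. Of 79 members tested, 18 were called higher and 15 lower in NK cells. That is near the shares of all genes, at 21.8% and 22.2% of 10367. The median was 0.06, against -0.00 for all genes. Ndufa4, named for complex I and now placed in complex IV, had 494, 532, 607 and 474 CPM in NK cells, against 269, 341, 355 and 314 CPM in CD8 T cells, a difference of 0.69 ± 0.05 (log2, SE; adjusted p 2.87e-12 by edgeR's test). Cox7a2l went the other way, at 330, 329, 305 and 311 CPM in NK cells, against 512, 514, 444 and 479 CPM, a difference of -0.64 ± 0.05 (adjusted p 2.61e-12 by edgeR's test). Neither gene overlapped between the classes. Cox7a2 (0.41), Ndufs4 (0.35), Ndufb11 (0.32) and Ndufa5 (0.24) were higher in NK cells, and Cox6b2 (-0.89), Uqcrh (-0.45) and Ndufb1-ps (-0.24) were lower. Cox6b2 rested on 47 UMIs in NK cells and 204 in CD8 T cells. All 13 mt- genes were called lower in NK cells, with a median of -0.38. The number of members called was 33 with the library as a block (44.0% of all genes) and 21 without it (35.6%). It was 18 by DESeq2's Wald test (28.9% of all genes).

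Within the mononuclear phagocytes, monocyte-range cells called 14 members higher and 38 lower than macrophage-range cells, where 32.4% and 34.5% of 12495 genes were called. The median was -0.13, against -0.06 for all genes. Members of both directions were found in the same complex. Ndufa12 had 103, 124, 123 and 113 CPM in monocyte-range cells, against 238, 243, 276 and 273 CPM in macrophage-range cells, a difference of -0.99 ± 0.07 (log2, SE; adjusted p 6.49e-11 by edgeR's test), and Ndufa5 (-0.73) and Ndufc2 (-0.60) were low with it. Ndufa6 and Ndufa1 (0.40 each) and Ndufb1-ps (0.44) of the same complex were higher, as were Uqcrh (0.45) and Cox6b2 (1.05). Cox6a2 (-2.71), which averaged 3.63 CPM over all mononuclear phagocytes, and Sdhc (-0.68) were lower. All 30 cell cycle genes were lower in monocyte-range cells, with a median of -3.88, and the part of cycling cells was not tested.

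Isoforms showed the sharpest class differences. Several small subunits of complex IV have paired genes, in mammals known as heart and skeletal muscle forms (Cox6a2, Cox7a1, Cox8b) and widespread forms (Cox6a1, Cox7a2, Cox8a). The following levels are descriptions, without a test. Cox6a2 had 1775 and 1607 CPM in plasmacytoid dendritic cells under liproxstatin, against 2112 and 2136 CPM in control, a mean of 1908 ± 259 CPM (SD, n = 4). No library of another class exceeded 5.22 CPM, and the next class, mononuclear phagocytes, averaged 3.63 ± 0.839 CPM, so the ratio of the means was 525. The liproxstatin libraries were below the control libraries in plasmacytoid dendritic cells.

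A Cox6a2 UMI was present in 307 of 318 plasmacytoid dendritic cells (96.5%) at a median depth of 13248.5 UMIs. It was present in 6.73% of mononuclear phagocytes at a median depth of 24772 UMIs and in 0.623% of CD8 T cells at 12776 UMIs. Of all Cox6a2 UMIs in gated cells, 85.5% came from plasmacytoid dendritic cells, and the gene made up 28.3% of their complex IV member UMIs. Its widespread counterpart Cox6a1 was still present there, at 243 and 215 CPM under liproxstatin, against 286 and 271 CPM in control. Without Cox6a2, complex IV stood at 47.6 per 10000 in plasmacytoid dendritic cells, within the 37.7 to 57.2 of the other classes except neutrophils at 16.3.

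Cox6b2, known from testis, had 45.0, 43.4, 44.2 and 45.5 CPM in mast cells and basophils (liproxstatin 1 and 2, then control 1 and 2). Libraries of other classes reached 7.14 CPM at most, and 25.6% of mast cells and basophils had a UMI at a median depth of 6807 UMIs. Cox7a1 averaged 22.6 ± 7.50 CPM in mast cells and basophils and 15.7 ± 2.64 CPM in mononuclear phagocytes, which overlap, against 0.717 ± 0.988 CPM in plasmacytoid dendritic cells (SD, n = 4). Cox7b2 and Cox8c had 0 UMIs and Cox8b had 8. Cox4i2, outside the members and known as the hypoxia-responsive form of subunit IV, averaged 10.4 CPM in mononuclear phagocytes.

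**Figure D5:**
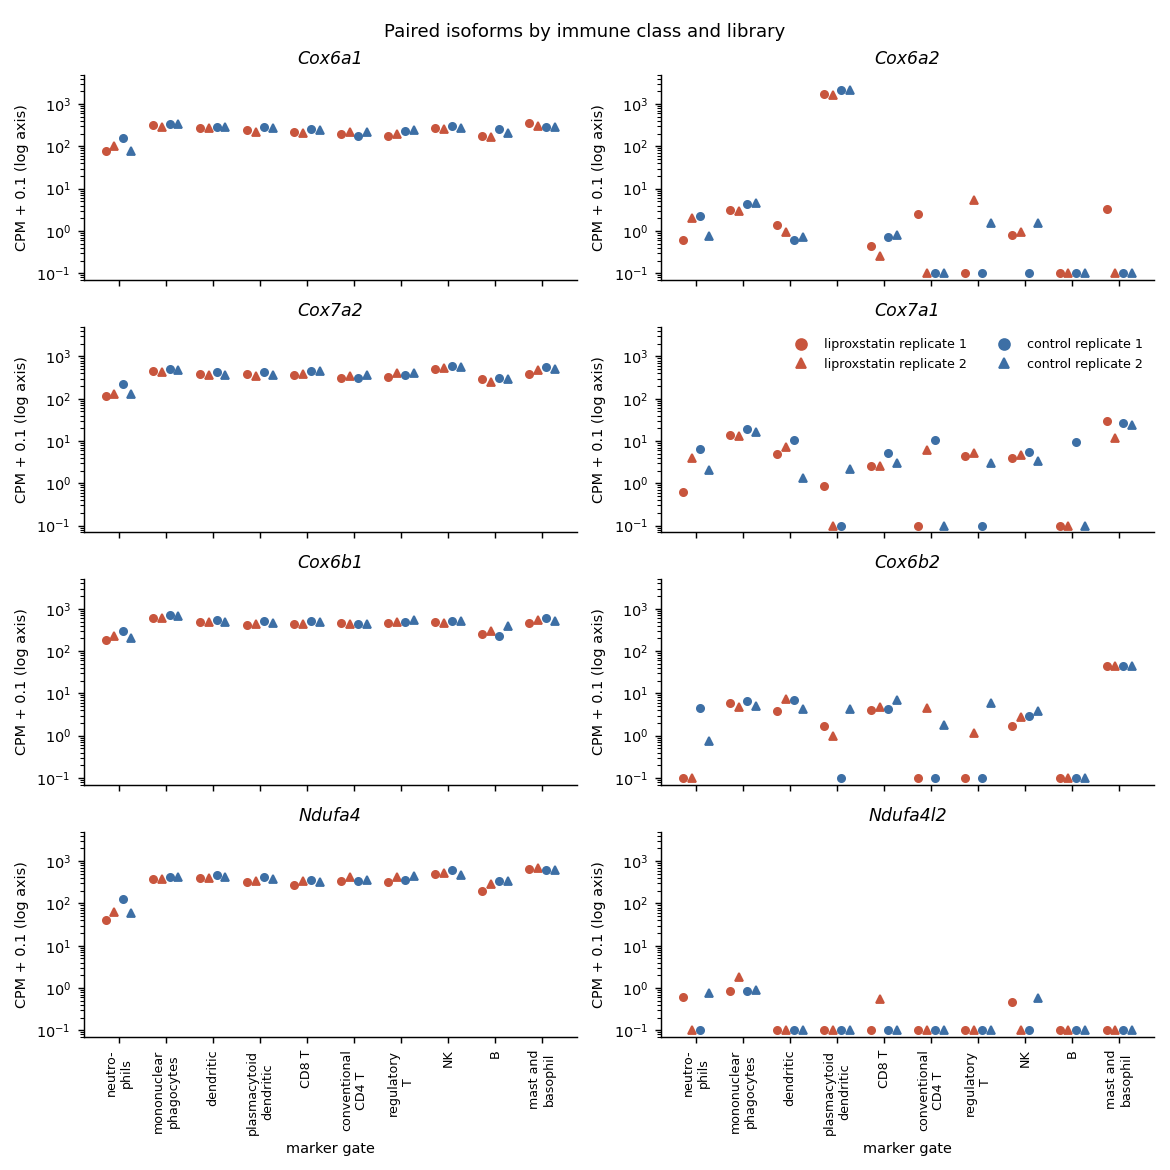
CPM of 4 pairs of related genes (Cox6a, Cox7a, Cox6b and Ndufa4 forms) with the small pseudocount given on the axis, on a log scale, 1 point per library, by class, liproxstatin left of control. Cox6a2 lies at 1607 CPM or higher in every plasmacytoid dendritic cell library and no higher than 5.22 CPM elsewhere.

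Atp5f1, the b subunit in the peripheral stalk of ATP synthase, averaged 1049 ± 104 CPM in mast cells and basophils, 2.41 times the 434.8 ± 29.1 CPM of dendritic cells, the next class. Atp5b, the catalytic beta subunit, averaged 239 CPM in mast cells and basophils, against 579 CPM in mononuclear phagocytes. The c-ring protein is encoded by Atp5g1, Atp5g2 and Atp5g3, which differ in their targeting peptides. Atp5g2 averaged 600.1 ± 31.8 CPM in mononuclear phagocytes and 696.2 ± 43.2 CPM in CD8 T cells. Atp5g1 averaged 377.1 ± 23.8 CPM in mononuclear phagocytes, and Atp5g3 averaged 292.5 ± 20.3 CPM there and 266.3 ± 26.0 CPM in CD8 T cells (SD, n = 4).

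Complex II held the strongest phagocyte bias among its subunits in Sdhc. It averaged 97.0 ± 6.53 CPM in mononuclear phagocytes, against 56.4 ± 5.33 CPM in dendritic cells, the next class, with no overlap. Sdha was highest on average in plasmacytoid dendritic cells at 86.9 ± 5.13 CPM, against 78.8 ± 2.56 CPM in mononuclear phagocytes and 31.9 ± 9.32 CPM in mast cells and basophils. The lowest plasmacytoid dendritic cell library had 81.2 CPM and a library of another class reached 107 CPM, so they overlap. Sdhb, the iron-sulfur subunit, was highest in mast cells and basophils at 203.6 ± 21.2 CPM, against 170.8 ± 14.04 CPM in mononuclear phagocytes, which overlap. Sdhd, the other anchor, had 137.7 ± 8.34 CPM in mononuclear phagocytes and 131.0 ± 4.62 CPM in dendritic cells, which overlap too (SD, n = 4).

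Members also varied in level between the classes other than neutrophils. Of the 76 members with at least 15000 UMIs, all were lowest in neutrophils. With neutrophils set aside, the ratio of the highest to the lowest class mean had a median of 1.90 and ran between 1.34 and 4.17, with 47 members under 2 and 2 members over 3. The highest class was mononuclear phagocytes for 30 members, mast cells and basophils for 21, NK cells for 6 and dendritic cells for 4. It was CD8 T cells, regulatory T cells and plasmacytoid dendritic cells for 5 each.

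By UMIs over all gated classes, the leading members were Ndufa4 (178862) and Ndufa2 (167183) of the complex I list, Sdhb (73038) and Sdhd (58610) of complex II, and Uqcrh (228063) and Uqcrq (183463) of complex III. Complex IV was led by Cox8a (445521) and Cox7c (341618) and complex V by Atp5e (366467), the epsilon subunit, and Atp5l (287604), subunit g. All 84 members together held 10369277 UMIs. Cox7c, which had 740 and 695 CPM in mononuclear phagocytes under liproxstatin, against 881 and 788 CPM in control, is one of the 9 named above, whereas Uqcrh, at a log2 difference of 0.09 ± 0.09 (SE), was not lower in that class.

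Of the genes outside the patterns, none was called for treatment by edgeR's test. Cycs had log2 differences of -0.39 ± 0.11 (SE) in CD8 T cells (adjusted p 0.130) and -0.40 ± 0.11 in NK cells (adjusted p 0.594), by edgeR's quasi-likelihood test. Cox4i1, a nuclear-encoded form of subunit IV, stood between -0.01 and 0.06 in the 4 classes other than neutrophils. Between classes Cycs was the exception in neutrophils, at -0.04 ± 0.18 against mononuclear phagocytes with an adjusted p of 0.835 by edgeR's test, and it was higher in dendritic cells (0.82 ± 0.07) and in NK cells against CD8 T cells (0.57 ± 0.05). Ndufab1 (-2.37 ± 0.21) and Cox4i1 (-1.28 ± 0.19) were lower in neutrophils. Atpif1 averaged 758 CPM in dendritic cells, against 463 CPM in mononuclear phagocytes.

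Small subunit genes of this kind have many processed pseudogenes in the mouse genome, and reads shared between near-identical copies cannot be assigned from the counts alone. Ndufb1-ps carries the label of a pseudogene in its symbol, but it is matched in RefSeq to the symbol Ndufb1. It was counted as a member by the pattern.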

How the data were processed

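The deposited values are raw counts of UMIs per gene and barcode, with a matrix for each library, per the file headers. Cell Ranger 6.1.1 is named in those headers and Cell Ranger 4 with mm10 in the submitters' processing notes, and which version made the counts is not given in the sources used here. Barcodes needed at least 200 genes and a mitochondrial share under 15%. Scrublet (scanpy 1.11.5, Python 3.11.15) ranked doublets, and 0.8% per 1000 barcodes were left out. Its own threshold called 143 and 207 barcodes in the liproxstatin libraries, against 2 and 3 in control. The share left out was thus 6.92% and 7.44% under liproxstatin, against 3.30% and 5.59% in control. A cell entered a class where it had UMIs of enough of that class's markers and of few of another's, with thresholds set after seeing the data. Members, marker lists and gene lists were chosen with earlier results of these data known.

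UMIs were summed per library and class. edgeR 4.0.16 (R 4.3.3; filterByExpr, TMM, quasi-likelihood F test, Benjamini-Hochberg over all genes, threshold 0.05) was fitted to liproxstatin against control in 5 classes, to 5 class contrasts with the library as a block, and to the interaction of treatment with class, after tests on simulated data. A standard error is the log2 difference divided by the root of F. Lengths and positions come from the GENCODE M21 annotation of GRCm38, in which all 84 members were found. Genes named are those called for treatment, the leading 2 members of each complex, the extremes of each comparison (2 and 2 for treatment, 5 and 5 called between classes), and the isoform and complex II genes; 1 gene that this rule names is not reported here. DESeq2 1.42.0, other gates, filters, scalings and left-out libraries were alternatives. Sample numbers are the labels'.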

Additional observations from a re-analysis of the deposited data

Results flagged for a closer look

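The mt- genes moved in opposite directions between classes. Liproxstatin minus control, their UMIs per 10000 differed by -29.0 in neutrophils, and by 39.8 in mononuclear phagocytes, 20.1 in dendritic cells, 25.3 in CD8 T cells and 32.5 in NK cells, with the treated libraries all on the low side in neutrophils and all on the high side in the other 4 classes. The difference between the sums was not tested, and edgeR's interaction of neutrophils with mononuclear phagocytes called 0 of 13 mt- genes. Without neutrophil barcodes over 10000 UMIs the neutrophil libraries overlapped, at 37.3 and 48.6 under liproxstatin, against 40.9 and 51.2 in control.

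Cox6a2 differed by -1.45 CPM in mononuclear phagocytes and -0.423 CPM in CD8 T cells, and by 0.492 CPM in dendritic cells, where it rested on 8 UMIs in all. Ndufa10, an accessory subunit of complex I, differed by -8.45 CPM in mononuclear phagocytes, at 111 and 110 CPM under liproxstatin, against 115 and 123 CPM in control, and by 19.0 CPM in dendritic cells, at 106 and 99.5 CPM, against 82.0 and 85.0 CPM. Neither difference between classes was tested.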

How the results depend on the processing

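Counts of members called for treatment stayed between 0 and 6 in mononuclear phagocytes, dendritic cells, CD8 T cells and NK cells. Without a filter on low counts they were 5 in mononuclear phagocytes, where 5.56% of all genes were called, and 2 in CD8 T cells (1.89%), against 0 and 1. Leaving out 1 library gave 0 to 30 calls in neutrophils, 0 to 6 in mononuclear phagocytes, 0 to 2 in dendritic cells, 0 to 2 in CD8 T cells and 0 to 14 in the interaction, the highest each time without control replicate 2, when control replicate 1 stands alone and is assumed to vary like the treated libraries. Without that library 16.2% of all genes were called in neutrophils, 5.20% in mononuclear phagocytes, 1.98% in dendritic cells, 1.13% in CD8 T cells and 6.55% in the interaction. Without control replicate 1 they were 1 in neutrophils (3.34% of all genes) and in mononuclear phagocytes (6.27%) and 0 in CD8 T cells (3.50%). Equal cells per library gave 1 call in the interaction (0.292% of all genes). The replicate block gave 2 calls in CD8 T cells (1.66% of all genes) and 1 in NK cells (0.886%; Atp5md, adjusted p 0.017 by edgeR's test); with 2 pairs, deviations of same-numbered libraries correlated between -0.03 and 0.15 over genes, so the numbers are not shown to pair libraries, and it was not run for the interaction. Between classes, stricter gates gave 29 calls for dendritic cells (43.8% of all genes), against 47 (54.7%). NK cells against CD8 T cells had 33 calls (44.0% of all genes), and 18 by DESeq2's Wald test (28.9%), 21 with stricter gates (36.4%), 21 with no replicate block (35.6%), and 20 to 33 with 1 library left out. In the sums, stricter gates gave NK cells -11.2 per 10000 and a ratio difference of -0.136, equal cells gave CD8 T cells a ratio difference of -0.161, and neutrophils without barcodes over 10000 UMIs had -0.0116, against 0.126. The dendritic cell sum differed by 0.0738 with stricter gates and by 0.203 without control replicate 1, against -10.3. Of 919 values of named members under the alternatives, 887 kept their direction and side of the threshold, 24 lost a call, 8 gained one and 0 reversed. The cause was not tested where calls were lost or gained. Neutrophil sums rest on 457566 to 1949660 UMIs per library, which limits members of few UMIs.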

Other observations

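Assembly factors of the complexes, which are not subunits, were mostly lower in neutrophils against mononuclear phagocytes. By edgeR's test 37 of 52 were called lower and 6 higher, where 39.5% of all genes were called lower and 25.3% higher. Their median was -1.56, against -1.60 for the members, of which 0 were called higher. In monocyte-range against macrophage-range phagocytes, 58 of 78 mitochondrial ribosomal proteins were called lower and 8 higher, with a median of -0.44, where 34.5% of all genes were called lower and 32.4% higher, against a median of -0.13 for the members. In CD8 T cells against mononuclear phagocytes, 14 of 24 regulators of mitochondrial transcription and biogenesis were called higher and 6 lower, with a median of 0.44, where 40.2% of all genes were called higher and 41.7% lower, while 56 of 81 members were lower. For treatment, the assembly factors had medians of -0.06 in mononuclear phagocytes, -0.08 in CD8 T cells and -0.06 in NK cells. In mononuclear phagocytes 1 of them was called, higher, where 1.78% of 14574 genes were called. The tricarboxylic acid cycle genes had -0.02, -0.04 and 0.02. None was called in CD8 T cells or NK cells, where 0.806% and 0.0299% of all genes were called.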
